A study of Mus musculus with 6 samples.

Results

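The YAP target genes described here are the genes of a symbol list that appear in the deposited table of KYSE30 cells exposed to acetylcholine. This list was chosen with earlier results of these data known. The list holds 10 symbols for 8 genes, since CYR61 and CCN1, and likewise CTGF and CCN2, name the same gene. Of these, 5 are among the 4195 listed genes: NT5E, F3, AMOTL2, AXL and CYR61. CTGF, ANKRD1 and LATS2 have no row in the table, under any of their listed symbols, and no value here. The cells sequenced were KYSE30, a human line established from a squamous cell carcinoma of the esophagus and labelled wild type. In the ACh group the cells were treated with 100 uM acetylcholine for 4 h, and in the Control group, at the same time point, they were not, with 3 libraries in each group; a vehicle is not given in the sources used here. The labels give mouse as the organism, but 4183 of the 4195 gene IDs are human.

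YAP and its relative TAZ (encoded by YAP1 and WWTR1) are co-activators that reach DNA through the TEAD transcription factors. The Hippo kinases hold them in check, with the MST kinases activating the LATS kinases, which phosphorylate YAP and keep it out of the nucleus. Receptors coupled to Gq/11 and G12/13 proteins are known to raise YAP activity through the actin cytoskeleton, and several muscarinic acetylcholine receptors couple to Gq/11. The genes described here are widely used as transcriptional readouts of YAP. NT5E, F3 and AXL encode proteins of the cell surface, CYR61 a secreted matrix protein, and AMOTL2 an adaptor that binds YAP and restrains it.

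The table holds a gene only if the authors' unadjusted p was under 0.05, and this held for all 4195 rows. Each value is a normalised read count, that is, the authors' read count divided by a library factor. Summed over listed genes, ACh libraries held 10519515 to 10681118 normalised reads and Control libraries 11097307 to 11468978, and the total depth is unknown. Each of the 5 targets rests on at least 1075 steps of its library's value, where a step may be a single read. Fold changes below are differences of group means on the log2(value + 1) scale from limma, and "rose" and "fell" are used only where both limma and the authors' deposited table gave an adjusted p under 0.05. Of the squamous markers, 5 of 12 were listed, with summed levels of 10518 to 11091 in ACh libraries and 10802 to 11093 in Control libraries. Within this sum TP63 and DSC3 rose by 0.23 and 0.14 on the log2 scale and SOX2 and KRT15 fell by 0.20 and 0.17. Over all listed genes 28.8% rose and 35.0% fell. Once a GC trend was removed, 3 of the 4 markers with a GC value changed sign, among them DSC3 and KRT15, to -0.065 and 0.0053. SOX2 kept its call at -0.20, and TP63 had no GC value and was not checked. Of the markers of other cell types, COL1A1 (fibroblasts) and LAPTM5 (leukocytes) were low, at 133 to 147 and 31.1 to 48.2 in ACh libraries and at 146 to 193 and 17.7 to 21.3 in Control libraries. EGFL7 (endothelium) stood at 818 to 970 in ACh libraries and 1052 to 1081 in Control libraries, and its part in the results was not tested. The 15 listed mitochondrial genes held 7.74 to 8.26% of the listed normalised reads in ACh libraries and 8.46 to 9.32% in Control libraries. The 10 most abundant genes held 9.80 to 10.3% in ACh libraries and 10.5 to 11.4% in Control libraries. Neither share overlapped between the groups, and their part in the results was not tested.

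Of the 5 YAP targets, 3 rose in ACh-treated cells (NT5E, AXL and F3), AMOTL2 fell, and CYR61 was higher without passing both tests, with the calls of F3 and AMOTL2 lost and the sign of AMOTL2 reversed once a GC trend was removed. All changes were small, from 1.28-fold for NT5E to 0.909-fold for AMOTL2. Limma alone called all 5, as it did 99.6% of the table. With 4 of 5 past both tests, the targets were near the table around them, in which 63.8% of genes passed both, 28.8% rising and 35.0% falling. Their median log2 fold change was 0.17, against -0.098 over all listed genes. In such bulk RNA, fewer cells expressing a gene and less RNA per cell cannot be told apart. Nothing in the labels says that replicates were separate cultures, and the p-values then speak only of the spread among these samples, possibly a technical one. The table had been selected for small p-values, so limma on the same libraries adds no independent support to the authors' calls.

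NT5E encodes CD73, the ectoenzyme that converts extracellular AMP to adenosine. The gene (ENSG00000135318) lies on the plus strand of chromosome 6 from 85449584 to 85495791 in the file's coordinates, whose build is not given in the sources used here. Its normalised counts were 2614, 2795 and 2649 in the 3 ACh libraries, against 2051, 2210 and 2045 in the 3 Control libraries. The lowest ACh library stood 404 above the highest Control library, the widest gap of the 5 genes. NT5E averaged 2686 ± 95.7 in ACh and 2102 ± 93.3 in Control (SD, n = 3 each). It rose by 0.35 on the log2 scale, with a standard error of 0.040 and a limma adjusted p of 1.63e-06. As a fold this was 1.28, with a 95% interval of 1.21 to 1.35. Among the 1207 genes that rose, NT5E ranked 90 by size of the log2 fold change.

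AXL encodes a receptor tyrosine kinase for the ligand GAS6. The gene (ENSG00000167601) lies on the plus strand of chromosome 19 from 41219203 to 41261766. Its normalised counts were 1165, 1337 and 1184 in ACh libraries, against 1061, 1132 and 1006 in Control libraries. The groups did not overlap, but only 32.2 separated the nearest ACh and Control libraries, and ACh replicate 2 stood apart from the other two ACh libraries. AXL averaged 1229 ± 94.6 in ACh and 1066 ± 63.4 in Control (SD, n = 3 each). It rose by 0.20 on the log2 scale, with a standard error of 0.057 and a limma adjusted p of 0.00318. The adjusted p was 0.0223 in the authors' deposited table. AXL had the widest relative spread of the 5 genes, 7.70% of the mean in ACh and 5.95% in Control. Without ACh replicate 2 its log2 fold change was 0.14.

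F3 encodes tissue factor, the receptor that starts the extrinsic path of blood coagulation. The gene (ENSG00000117525) lies on the minus strand of chromosome 1 from 94529225 to 94541800. Its normalised counts were 3881, 4217 and 4090 in ACh libraries, against 3550, 3734 and 3540 in Control libraries. Every ACh library was above every Control library, the nearest by 147. F3 averaged 4062 ± 170 in ACh and 3608 ± 109 in Control (SD, n = 3 each). It rose by 0.17 on the log2 scale, with a standard error of 0.036 and a limma adjusted p of 4.75e-04. The fold was 1.13, with a 95% interval of 1.07 to 1.19.

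CYR61, now named CCN1, encodes a secreted matrix protein that binds integrins and is an early YAP target. The gene (ENSG00000142871) lies on the plus strand of chromosome 1 from 85580761 to 85583962. Its normalised counts were 1803, 1981 and 1889 in ACh libraries, against 1717, 1826 and 1712 in Control libraries. The groups overlapped, because Control replicate 2 lay above ACh replicate 1. CYR61 averaged 1891 ± 89.3 in ACh and 1752 ± 64.7 in Control (SD, n = 3 each). Its log2 fold change of 0.11 had a limma adjusted p of 0.0189, but in the authors' deposited table the adjusted p was 0.132. The limma call also ended without ACh replicate 2 (log2 fold change 0.076, adjusted p = 0.113), without Control replicate 1 (0.095, adjusted p = 0.0701) and without Control replicate 3 (0.094, adjusted p = 0.0787).

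AMOTL2 encodes angiomotin-like 2, a junctional adaptor that binds YAP and is itself induced by it. The gene (ENSG00000114019) lies on the minus strand of chromosome 3 from 134355874 to 134375479. Its normalised counts were 4688, 4772 and 4928 in ACh libraries, against 5118, 5367 and 5348 in Control libraries. Every ACh library was below every Control library, the nearest by 190. AMOTL2 averaged 4796 ± 122 in ACh and 5278 ± 138 in Control (SD, n = 3 each). It fell by 0.14 on the log2 scale, with a standard error of 0.033 and a limma adjusted p of 0.00115, a call that did not hold under equal totals or with the GC trend removed, as given further on. The fold was 0.909, with a 95% interval of 0.867 to 0.953.

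**Figure D1:**
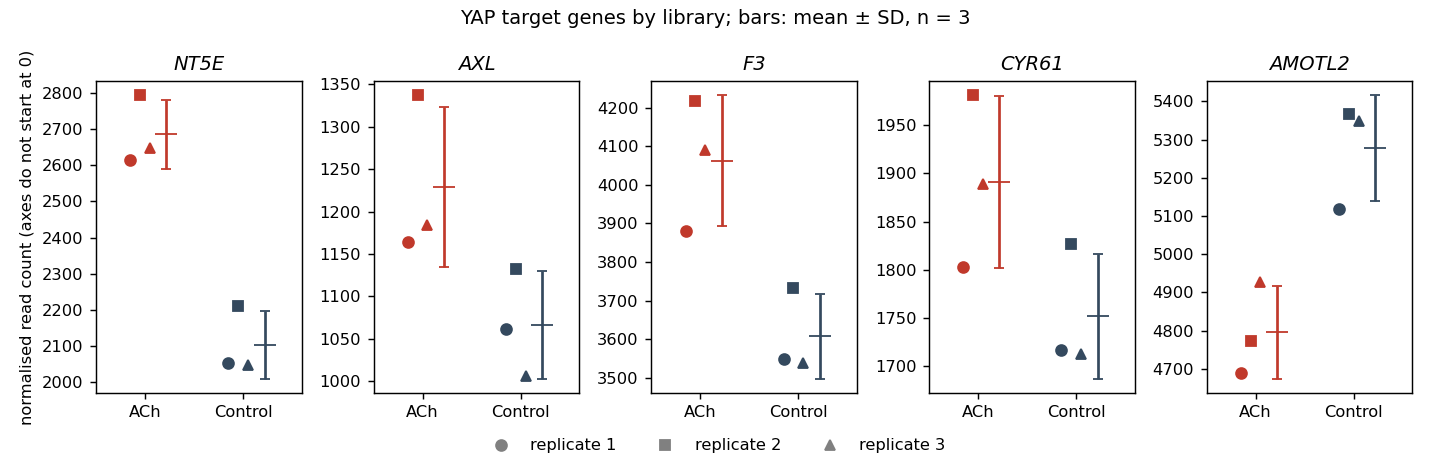
Normalised read counts of the 5 YAP target genes in each library (vertical axes, which do not start at 0), ACh left and Control right, with marker shape for the replicate number and bars for mean ± SD (n = 3 each). The ACh and Control libraries do not overlap for NT5E, AXL, F3 and AMOTL2, and they do for CYR61.

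The groups did not overlap for 4 of the 5 genes, against 93.0% of all listed genes. Replicate 2 was the highest ACh library for NT5E, AXL, F3 and CYR61, and replicate 2 was the highest Control library for all 5 genes. Per kilobase of the length given in the table, F3 had the highest level, 1413 ± 59.0 normalised reads per kilobase in ACh and 1255 ± 38.1 in Control (SD, n = 3 each). AMOTL2 followed with 802 ± 20.3 in ACh and 882 ± 23.1 in Control, and CYR61 with 770 ± 36.4 in ACh and 714 ± 26.4 in Control. AMOTL2 and CYR61 overlapped in ACh libraries and were apart in Control libraries. NT5E had 592 ± 21.1 per kilobase in ACh and 464 ± 20.6 in Control, and AXL was lowest with 238 ± 18.3 in ACh and 207 ± 12.3 in Control.

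A ratio of 2 genes within a library does not depend on how the library was scaled. Of the 10 pairs among the 5 genes, 9 had log2 ratios that did not overlap between the groups, against 61.8% of all pairs of listed genes. NT5E over AMOTL2 differed most, with log2 ratios of -0.84, -0.77 and -0.90 in ACh libraries, against -1.32, -1.28 and -1.39 in Control libraries. The ratio of these 2 genes was thus higher in ACh by 0.49 on the log2 scale. NT5E over F3 was higher by 0.18, NT5E over AXL by 0.15 and F3 over CYR61 by 0.061. AXL over F3 was the pair that overlapped, at -1.74, -1.66 and -1.79 in ACh libraries, against -1.74, -1.72 and -1.82 in Control libraries. No test was made of these ratios, in which the 5 genes are used repeatedly. The ratios still carry the GC trend described below. With that trend removed, the log2 fold changes were 0.24 for NT5E, 0.36 for AXL, 0.0040 for F3 and 0.22 for CYR61. NT5E then changed less than AXL, and F3 less than CYR61, the reverse of the order above.

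Scaling and base composition moved the 5 genes in different ways. In the listed genes the fold change followed GC content. Over 3677 genes whose symbol has a mouse transcript, that transcript's GC content and the log2 fold change had a Spearman correlation of -0.76 across genes; genes are not independent replicates, and the libraries are shared by all. No human sequence was used here. GC content was 48.0% for NT5E, 46.3% for F3, 52.7% for CYR61, 54.2% for AXL and 56.6% for AMOTL2.

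The targets stood differently among listed genes of like GC content. Within 1 percentage point of F3 there were 324 listed genes, of which 306 were higher in ACh, with a median log2 fold change of 0.19, close to the 0.17 of F3. Around NT5E 225 of 270 were higher and the median was 0.16, against 0.35 for NT5E. Around AXL 15 of 306 were higher and the median was -0.17, against 0.20 for AXL. Around CYR61 40 of 252 were higher and the median was -0.15, against 0.11 for CYR61. Around AMOTL2 8 of 443 were higher and the median was -0.18, against -0.14 for AMOTL2. AXL and CYR61 were thus higher in ACh among genes that were mostly lower, and F3 and AMOTL2 had the direction of most genes of their GC content.

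**Figure D2:**
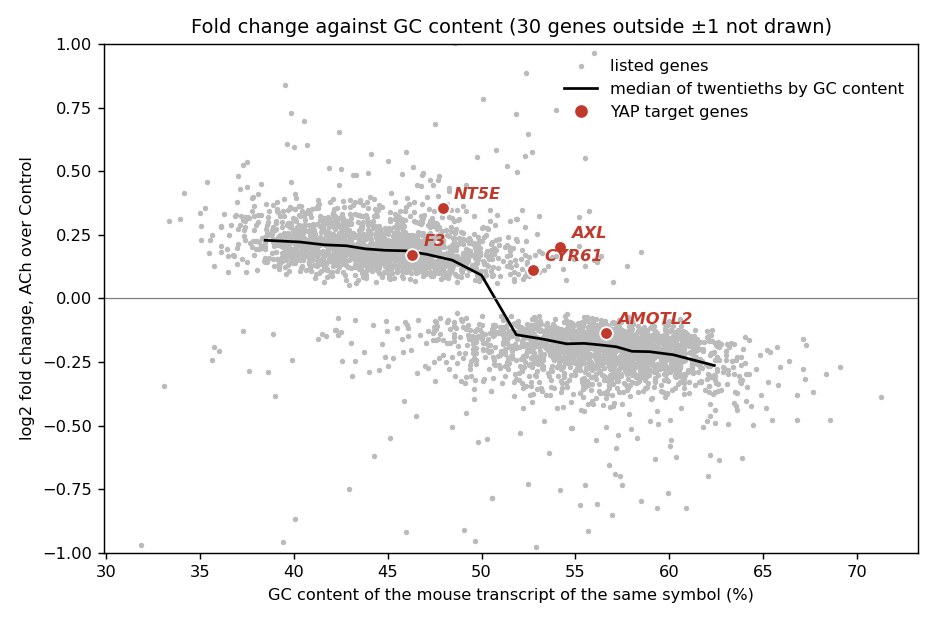
Log2 fold change of ACh over Control (vertical axis) against GC content in percent of the mouse transcript of the same symbol (horizontal axis) for the listed genes, with the 5 YAP target genes in red and the median of 20 equal bins as a line. F3 lies near the line, NT5E, AXL and CYR61 lie above it, AMOTL2 lies slightly above it, and 30 genes beyond ±1 are not drawn.

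Removing the GC trend from each library left 612 of 3677 genes past limma (16.6%), and 3 of the 5 targets were among them. NT5E then had a log2 fold change of 0.24 (limma adjusted p = 7.67e-05), AXL of 0.36 (adjusted p = 5.51e-05) and CYR61 of 0.22 (adjusted p = 4.96e-04). F3 stood at 0.0040 with a 95% interval of -0.069 to 0.077 (adjusted p = 0.956), its libraries overlapping at 3653, 3937 and 3912 in ACh, against 3729, 3976 and 3763 in Control. AMOTL2 changed sign to 0.062 and was not called (adjusted p = 0.174). With the replicate number as a block in the same fit, the adjusted p was 0.937 for F3 and 0.0813 for AMOTL2. The removal shifted the median log2 fold change of these genes by 0.11. It rests on mouse GC content and on listed genes, among which changes near 0 are missing, so the trend is not that of all expressed genes.

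When each library was scaled to the same total of listed genes, the median log2 fold change was higher by 0.080. It left 4 of the 5 targets past limma, against 75.7% of listed genes, and the share of calls that were higher was 63.7%, against 48.2% with the authors' scaling. NT5E then stood at a log2 fold change of 0.43, AXL at 0.28, F3 at 0.25 and CYR61 at 0.19, while AMOTL2 was not called, at -0.058 (limma adjusted p = 0.121). NT5E and AXL were thus higher in ACh and past limma under all 3 treatments of the values, as was CYR61. These treatments share the same libraries and the same genes selected for small p-values, so they are not separate support. CYR61 did not pass in the authors' deposited table (adjusted p = 0.132).

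**Figure D3:**
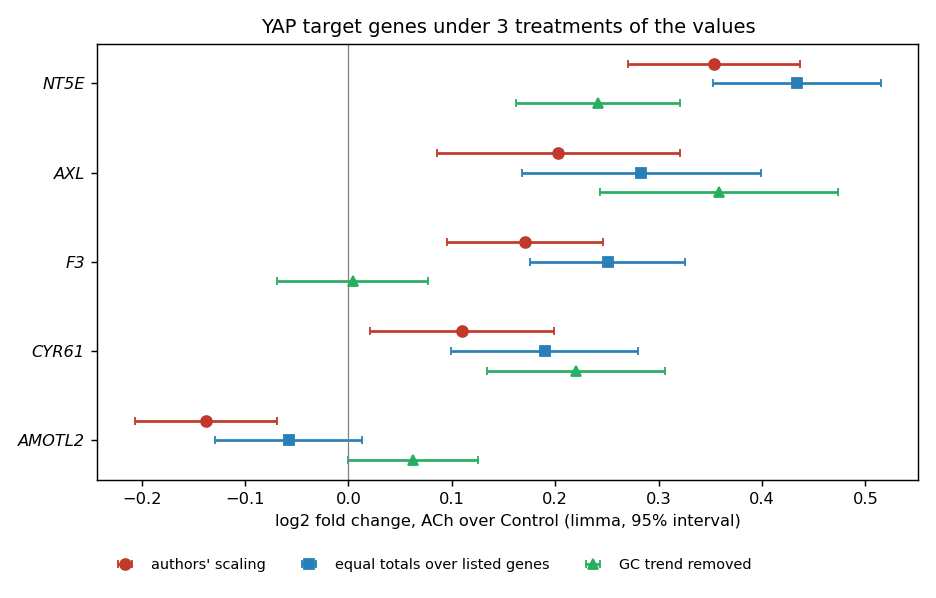
Log2 fold change of ACh over Control with its 95% interval from limma (horizontal axis) for each YAP target gene, with the authors' scaling, with equal totals over the listed genes and with the GC trend removed. The intervals of NT5E, AXL and CYR61 lie above 0 in all 3, that of F3 spans 0 once the GC trend is removed, and AMOTL2 stands at -0.14 with the authors' scaling, at -0.058 with equal totals and at 0.062 with the GC trend removed.

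Other genes counted as YAP/TAZ targets were mostly unlisted. Of 14 in a further list, 3 had values and 1 rose, against 28.8% of listed genes that rose. This was IGFBP3, whose product binds insulin-like growth factors in the extracellular space, with normalised counts of 3119 ± 217 in ACh and 1990 ± 122 in Control (SD, n = 3 each). Its log2 fold change was 0.65, and 0.75 with the GC trend removed. DOCK5, an activator of Rac, and ASAP1, a regulator of Arf proteins and of adhesion, had log2 fold changes of 0.15 and 0.090 and did not pass both tests, and with the GC trend removed they stood at 0.080 and 0.0093. The median of the 3 was 0.15, against -0.098 over all listed genes, and 0.080 with the GC trend removed.

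The co-activators themselves were listed. YAP1 had 2393 ± 34.7 normalised reads in ACh and 2189 ± 39.9 in Control (SD, n = 3 each) and rose by 0.13 on the log2 scale (limma adjusted p = 0.00308), a value that stayed at 0.13 with the GC trend removed. WWTR1, which encodes TAZ, had 1851 ± 62.6 in ACh and 1612 ± 73.3 in Control and rose by 0.20, but after removal of the GC trend it stood at 0.0066 and was not called. TEAD1, the DNA-binding partner, had a log2 fold change of 0.12 and did not pass both tests, and it stood at -0.049 with the GC trend removed. The other 7 symbols of this list of 10 were not in the table.

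Of 36 Hippo kinases, adaptors and upstream regulators 15 were listed, 10 of which rose and 2 fell, while 3 did not pass both tests. Over all listed genes 28.8% rose and 35.0% fell. The median log2 fold change of the list was 0.19 and the median GC content 44.8%. MOB1B, which activates the LATS kinases, rose by 0.36, LATS1 itself by 0.29 and TAOK1, a kinase upstream of MST, by 0.27. STRN4, of the STRIPAK phosphatase complex that opposes MST, fell by 0.20 and MINK1, a kinase of the MAP4K group, by 0.12, a call lost with equal totals (-0.042). With the GC trend removed the median of the list was 0.049, and 2 of its 12 calls were kept in the same direction, near the 329 of 2460 (13.4%) kept over all listed genes with a GC value. These were FAT1, a protocadherin, at 0.18 and MAP4K4, a kinase that activates LATS, at 0.20, named after their values were seen. MOB1B, LATS1 and TAOK1 then stood at 0.13, 0.092 and 0.049 and lost their calls, STRN4 changed sign to 0.029, and MINK1 was called in the opposite direction at 0.11 (limma adjusted p = 0.0167).

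SRF and its MRTF co-activators share targets with YAP and respond to the same actin signals. Of 21 symbols 7 were listed, 3 of which rose and 4 fell, where 28.8% of all listed genes rose and 35.0% fell. Their median log2 fold change was -0.11, against -0.098 over all listed genes, among which changes near 0 are missing. With the GC trend removed their median was 0.077. FOS, an immediate early gene, had 115 ± 2.31 normalised reads in ACh and 81.1 ± 5.54 in Control (SD, n = 3 each) and rose by 0.50. MRTFB, a co-activator of SRF, and FOSL1, a component of AP-1, rose by 0.19 and 0.18. These 3 of the 7 kept their calls with the GC trend removed, at 0.57, 0.16 and 0.41. Over all listed genes with a GC value 13.4% of such calls were kept. FOS was close to the threshold in the authors' deposited table (adjusted p = 0.0496), and the ACh and Control libraries overlapped for FOSL1. CNN2 and ACTB, which encode a calponin and beta-actin, fell by 0.21 and 0.18, and MYH9, a non-muscle myosin, by 0.13, a call lost with equal totals (-0.051). With the GC trend removed CNN2 and ACTB stood at -0.069 and -0.14 and lost their calls, and MYH9 changed sign to 0.077. With the replicate number as a block in the same fit, ACTB kept its call (limma adjusted p = 0.0157).

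**Figure D4:**
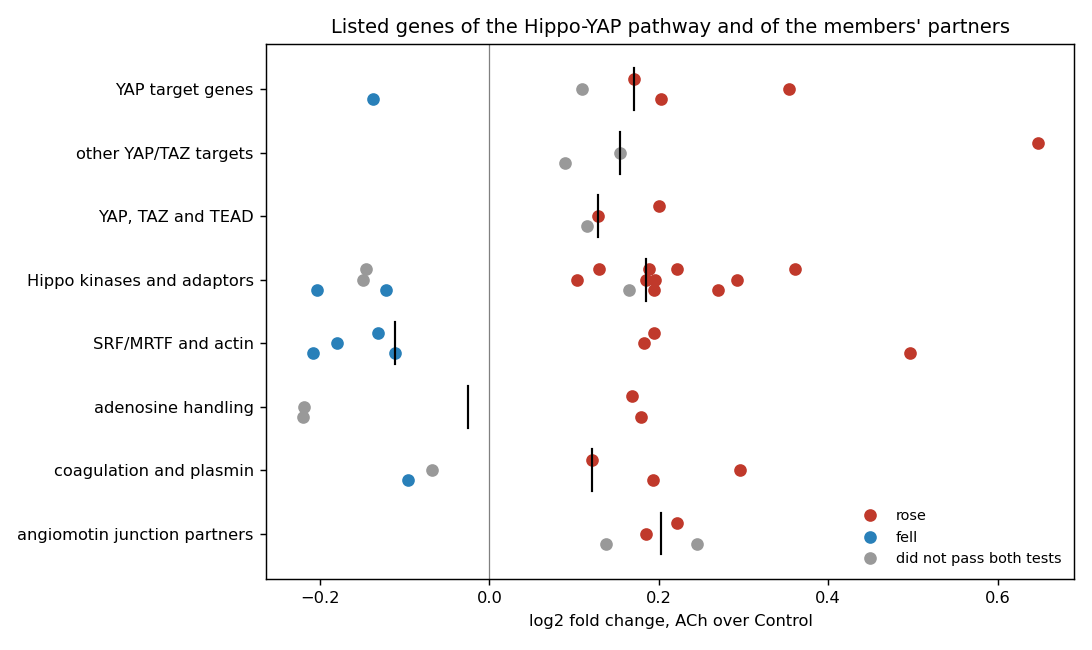
Log2 fold change of ACh over Control (horizontal axis) of each listed gene of the Hippo-YAP pathway and of the targets' partners, by list, coloured by whether it rose, fell or did not pass both tests, with a black line at each list's median. Of the 15 listed Hippo kinases and adaptors, 10 rose and 2 fell with the authors' scaling and the GC trend kept. Over all listed genes 28.8% rose and 35.0% fell. With the GC trend removed 2 of these 12 calls were kept, near the 13.4% kept over all listed genes with a GC value.

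Few genes that work with the proteins of the 5 targets were listed. Of 18 symbols for adenosine handling, the pathway of NT5E, 4 had values, and the adenosine receptors and the ectoenzymes upstream of it were not in the table. ADK, the kinase that removes adenosine inside cells, and NT5C2, a cytosolic nucleotidase, rose by 0.18 and 0.17, where 28.8% of all listed genes rose. The other 2 listed genes were lower in ACh and did not pass both tests. The median of the 4 was -0.025, against -0.098 over all listed genes, and -0.00098 with the GC trend removed. ADK and NT5C2 lost their calls with the GC trend removed, at -0.0085 and 0.0066. Of 16 symbols for coagulation and plasmin formation, the setting of F3, 5 were listed. TFPI, the inhibitor of tissue factor, had 424 ± 36.0 normalised reads in ACh and 346 ± 36.3 in Control (SD, n = 3 each) and rose by 0.30. F2RL1, a protease receptor that tissue factor complexes activate, rose by 0.19 and ANXA5, an anticoagulant annexin, by 0.12. S100A10, which binds plasminogen at the cell surface, fell by 0.096, a call lost with equal totals (-0.016) and without ACh replicate 2 (-0.074, limma adjusted p = 0.0593). The median of the 5 was 0.12, and 0.068 with the GC trend removed. With the GC trend removed ANXA5 kept its call at 0.15, while TFPI, F2RL1 and S100A10 lost theirs at 0.068, 0.095 and -0.042. None of the 4 symbols for ligands and relatives of AXL, such as GAS6, was listed.

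Of 10 symbols for junction proteins of the angiomotin complex, to which AMOTL2 is related, 4 were listed and 2 rose, where 28.8% of all listed genes rose. MPP5, the polarity scaffold also called PALS1, rose by 0.22 and TJP1, the tight junction protein ZO-1, by 0.18. The median of the 4 was 0.20, against -0.098 over all listed genes, and 0.021 with the GC trend removed. Both lost their calls with the GC trend removed, at -0.0073 and 0.031.

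The genes most like each target were sought among listed protein-coding genes whose mean reached the table's median (1194), by the root-mean-square difference of log2 profiles over the 6 libraries, each centred on its mean. For AMOTL2 these were MTA2, CTTN and TACC3, at distances of 0.006, 0.007 and 0.012, against a median of 0.084 over 2077 candidates. For F3 they were ZRANB2, RLIM and LARS, at 0.013, 0.016 and 0.018. CYR61 was closest to HAS3, LARS and CPSF2, at 0.019, 0.021 and 0.021. AXL was closest to SOX9, HK2 and TJP1, at 0.033, 0.036 and 0.038, and NT5E to CDK6, PHF6 and PHIP, at 0.038, 0.039 and 0.041. The median distance over candidates was 0.24 for NT5E, 0.18 for AXL, 0.15 for F3 and 0.13 for CYR61. Between the targets themselves, F3 and CYR61 were closest at 0.032 and NT5E and AMOTL2 farthest at 0.25, near the median of NT5E over candidates. No target was among the 3 nearest genes of another, though AXL could not be found, since its mean lay below the table's median (1194). All these profiles still carry the GC trend.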

How the data were processed

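The members and gene lists were chosen with earlier results of these data known. Per the labels' protocols, total RNA of 3 ACh and 3 Control samples went into SMARTer mRNA-seq libraries. The submitters' processing notes name mm8, mm10 and Bowtie 0.12.2. For the table's human build, annotation, counter and use of strand, the sources used here give nothing. No other listed gene overlapped the 5 targets. As a signal, the authors deposited read counts normalised by a factor per library. All values of a library were multiples (to within 0.0001) of a step, which lay between 0.768 and 1.13. Fewer than 100 values per Control library were low enough to recover reads by the set rule, so no count test was run. Per the file headers, the authors also deposited log2 fold changes, p-values and adjusted p-values. An adjusted p of exactly 1 (234 genes, none of them a target) was treated as not passing.

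Values were tested as log2(value + 1) with limma 3.58.1 (limma-trend, R 4.3.3), group as the only term, Benjamini-Hochberg adjustment over all 4195 genes and a threshold of 0.05, without a filter. The pseudocount understates changes of low genes. Same-numbered libraries deviated together from their group means (Pearson's r across 2078 genes of 0.17, 0.15 and 0.35 for numbers 1 to 3). Libraries of different numbers had r from -0.27 to 0.10, so the numbers may pair the samples. A fit with the replicate number as a block is therefore an alternative. GC content came from GENCODE M21, using the mouse gene of the same symbol and its longest coding transcript (87.7% of genes had one). Its trend was removed per library by local regression (span 0.3). Other alternatives tried were a lower-quartile filter, a pseudocount of 0.1, equal totals, the authors' adjusted p and leaving out each library. The limma step was tested on simulated data without a GC trend, paired samples or selection by p, so that test does not speak of these.

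A list and some genes are not reported here. Named genes were all listed targets, YAP/TAZ targets and YAP, TAZ and TEAD genes, up to 3 per direction of each other list with the largest changes past both tests, and the 3 nearest profiles per target. Summaries and plots used SciPy 1.17.1, NumPy 2.4.6, pandas 2.3.3 and Matplotlib 3.10.9 under Python 3.11.15.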

Additional observations from a re-analysis of the deposited data

How the results depend on the processing

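For the 5 YAP targets, a pseudocount of 0.1, the lower-quartile filter and the replicate block changed no call. The block changed no call among 25 pathway genes refitted with it either. A filter of genes cannot alter a log2 fold change, nor can the block, since each replicate number is present in both groups. Only the adjusted p could change, and the log2 fold changes stayed at 0.35, 0.20, 0.17, 0.11 and -0.14 for NT5E, AXL, F3, CYR61 and AMOTL2. At the counts of these targets a pseudocount of 0.1 could hardly alter them either. Leaving out each library in turn gave 0.32 to 0.39 for NT5E, 0.14 to 0.25 for AXL, 0.14 to 0.20 for F3, 0.076 to 0.14 for CYR61 and -0.16 to -0.12 for AMOTL2, and 3864 to 4037 genes called by limma (2647 to 2668 past both tests) against 4178 (2677) with all libraries. In the authors' deposited table CYR61, at a log2 fold change of 0.11, had an adjusted p of 0.132 and did not pass, while 2678 genes did. AMOTL2 lost its call with equal totals (-0.058) and changed sign with the GC trend removed, without and with the replicate block (0.062 for each), and F3 lost its call in both (0.0040). The GC fits called 612 genes without and 793 with the replicate block (394 and 524 also past the authors' adjusted p), against 3662 when these 3677 genes were tested without the removal, an alternative chosen after seeing the data; the cause was not tested. FOS and TFPI lay below the lower-quartile filter and have no value under it. Of 25 other named genes, with the GC trend removed, 6 kept their limma call and 13 lost it without a change of sign. The other 6 changed sign: STRN4 (0.029), MINK1 (0.11), TEAD1 (-0.049), MYH9 (0.077), ADK (-0.0085) and MPP5 (-0.0073). The replicate block cannot alter these values, only the calls, and with the block ACTB kept its call as well. The edgeR and DESeq2 fits planned for recovered reads were not run. With 3 libraries a group and unknown depth, changes of a few percent rest on the spread between few samples, and genes outside the table have no value.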

Other observations

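The listed genes nearest to NT5E, AXL, CYR61 and AMOTL2 on their chromosomes, 2 for each, were taken after the data had been seen. HNRNPUL1, an RNA-binding protein gene 0.730 kb from AXL, fell by 0.20 on the log2 scale, and CYP2S1, a cytochrome gene 11.7 kb away, had a log2 fold change of -0.16 without passing both tests, while AXL between them rose by 0.20. With the GC trend removed these 3 genes stood at -0.048, 0.049 and 0.36. RYK, a receptor gene 105 kb from AMOTL2, rose by 0.14 while AMOTL2 fell by 0.14, but with the GC trend removed they stood at 0.030 and 0.062 and no longer differed in sign. SLCO2A1, a transporter gene 304 kb from AMOTL2, stood at 0.89 without passing both tests, and at 0.98 with the GC trend removed. SLCO2A1 was among the 234 genes treated as not passing for their adjusted p in the authors' deposited table. Near NT5E, SNX14 at 9.71 kb had a log2 fold change of 0.15 without passing both tests and SYNCRIP at 112 kb rose by 0.14, and both changed sign with the GC trend removed, to -0.040 and -0.095. SSX2IP at 890.0 kb from CYR61 rose by 0.19, and ZNHIT6 at 65.5 kb stood at 0.17 without passing both tests. With the GC trend removed they stood at 0.020 and 0.11.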
